A study of Mus musculus with 16 samples.

Results

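The 8 genes described here, Kit, Foxo3, Igf1r, Insr, Mtor, Rptor, Rictor and Tsc1, belong to Kit, insulin, PI3K and mTOR signalling in the oocyte. They were listed by name for their place in that pathway, by a rule that uses no measured value but with earlier results of these data known, and were taken as 8 of the 21755 protein-coding gene bodies annotated on the GRCm38 mouse genome, of which 18197 had enough data to be tested. DNA methylation was measured by post-bisulphite adapter tagging (PBAT), a whole-genome bisulphite method for small amounts of DNA, in 16 pools of metaphase II (MII) oocytes from C57BL/6J X CBA/Ca F1 females. The IFC group (4 pools) held oocytes that grew in vitro in preantral follicles isolated from prepubertal females, and its labels give an age of 23 days. In the paper the follicle donors were younger, and the days of culture make up that age. The culture held recombinant follicle-stimulating hormone, and the ovulatory stimulus was recombinant human chorionic gonadotropin with epidermal growth factor. Culture, hormones and donor age cannot be told apart between IFC and SO. The SO group (5 pools) came from superovulated prepubertal females of 23 days and the SOA group (4 pools) from superovulated adult females of 10 weeks, which received a higher dose of the same 2 hormones, equine and human chorionic gonadotropin, so age and dose cannot be told apart between SO and SOA. The IV group (3 pools) came from adult females of 10 weeks that ovulated naturally without hormones. The labels name no transgene or deletion in any group. Each library is a pool of oocytes, so a value between the extremes cannot be told apart from a mixture of methylated and unmethylated oocytes or alleles.

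Primordial follicles are kept dormant until signalling through the receptor kinase Kit, PI3K and AKT moves the transcription factor Foxo3 out of the oocyte nucleus, and the mTOR kinase, restrained by the Tsc1-Tsc2 complex, sets the pace of the growth that follows. The insulin receptor Insr and the insulin-like growth factor receptor Igf1r feed the same kinases. In growing oocytes DNA methylation is laid down mainly over transcribed gene bodies, while most CpG-rich promoters stay unmethylated. These statements are background and were not measured here.

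The libraries held between 5218053 and 23065411 methylation calls, where a call is 1 read over 1 cytosine position, with a median of 7943292, and positions with a single call made up 65.5% to 91.5% of those covered. The 3 IV libraries held at least 15644144 calls and the 4 IFC libraries at most 8231898, so depth moved with group. Depth over the 8 gene bodies ranged from 124 calls (Tsc1) to 4825 calls (Igf1r) per library. Windows of 1000 bp on either side of the start of imprinted genes that oocytes methylate were 99.0% (Snrpn), 92.4% (Peg3), 95.9% (Airn) and 96.8% (Kcnq1ot1) methylated over all libraries, and a window upstream of H19, which oocytes leave unmethylated, was at 1.76%. The windows of Mest (36.1%) and Plagl1 (1.85%), listed as methylated, went against that expectation at the annotated starts used. In the first IV library Peg3 was at 77.1% of 96 calls, the lowest of the 16 libraries. The same library was at 98.2% of 112 calls for Airn, 97.4% of 38 for Kcnq1ot1 and 100% of 5 for Snrpn. For H19 it was at 1.89% of 53 calls, and for Mest at 50% of 8. Its Plagl1 window was at 5.68% of 88 calls, the highest of the 15 libraries with at least 5 calls there.

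The finding that held for most of these genes was a start without methylation, followed by a methylated gene body. The sequences in front of 3 of them are printed below, and these lie before the gene body and not inside it. The share of all genes with such a start was not counted, so it cannot be called particular to these genes. Given here are the 250 bases that precede the RefSeq transcription start of Igf1r, Mtor and Rptor, a receptor, a kinase and a scaffold protein, read 5′ to 3′ on the plus strand of GRCm38.p6 with each CpG in capitals.
Igf1r, chr7:67952007-67952256: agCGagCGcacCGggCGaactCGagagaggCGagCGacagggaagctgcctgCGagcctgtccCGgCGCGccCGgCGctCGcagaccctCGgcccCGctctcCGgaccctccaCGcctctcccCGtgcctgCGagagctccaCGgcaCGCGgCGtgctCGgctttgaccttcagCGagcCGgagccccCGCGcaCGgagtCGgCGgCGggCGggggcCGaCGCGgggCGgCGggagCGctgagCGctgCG
Mtor, chr4:148448332-148448581: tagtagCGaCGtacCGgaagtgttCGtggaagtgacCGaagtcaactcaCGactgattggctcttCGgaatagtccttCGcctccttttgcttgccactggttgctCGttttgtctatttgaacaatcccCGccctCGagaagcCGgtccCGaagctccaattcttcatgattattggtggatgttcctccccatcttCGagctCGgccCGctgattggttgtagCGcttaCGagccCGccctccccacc
Rptor, chr11:119602655-119602904: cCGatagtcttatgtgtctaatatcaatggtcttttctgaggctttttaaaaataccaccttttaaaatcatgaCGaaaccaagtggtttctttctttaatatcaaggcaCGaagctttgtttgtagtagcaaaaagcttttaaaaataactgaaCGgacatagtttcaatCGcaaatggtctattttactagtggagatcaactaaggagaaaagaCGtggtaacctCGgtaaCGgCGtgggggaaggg

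These 3 stretches differed widely in CpG content and all were unmethylated. Igf1r holds 42 CpGs, more than 99.1% of the 32851 entries of the promoter table used, Mtor holds 19 (more than 80.3%) and Rptor 9 (more than 59.7%), against a median of 6. Of the calls in these 250 bases, summed over the 16 libraries, 7 of 226 were methylated for Igf1r (3.10%; 95% Wilson interval 1.51 to 6.25), 1 of 169 for Mtor (0.592%; 0.105 to 3.28) and 1 of 56 for Rptor (1.79%; 0.316 to 9.45). The same window of Foxo3, with 31 CpGs, had 0 of 72 calls methylated (upper bound 5.07%), and those of Kit, Rictor and Tsc1 had 1 of 116, 1 of 208 and 2 of 302. Intervals cover counting error only. A RefSeq entry was matched for 7 of the 8 genes (all but Insr).

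Insr differed from the other genes at its start. In the 1000 bp before the annotated start of the other 7 genes, between 0.817% (Tsc1) and 2.77% (Rictor) of all calls were methylated, and in the first 1000 bp of the gene between 0.609% (Tsc1) and 3.62% (Rictor). For Insr 149 of 254 calls (58.7%; 95% Wilson interval 52.5 to 64.5) were methylated before the start and 541 of 730 calls (74.1%; 70.8 to 77.2) in the first 1000 bp, although its first 1000 bp hold 61 CpGs, within the range of 48 (Mtor) to 104 (Rictor) of the others. In the first 1000 bp of Insr the IFC pools together had 73.3% of 172 calls methylated, the SO pools 74.0% of 235, the SOA pools 87.3% of 157 and the IV pools 62.7% of 166. Before the start the IFC pools had 43.9% of 41 calls methylated, the SO pools 61.8% of 123, the SOA pools 62.2% of 37 and the IV pools 60.4% of 53. The lowest SO library was at 25.0% over the first 1000 bp and the highest had every call methylated, and 1 SOA library had no call there, so these group values were compared with no test. The highest group value among the other 7 genes in the first 1000 bp was 10.6% of 132 calls, for Rictor in IV, where the third pool was at 22.4% and the other 2 at 0% and 1.39%.

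**Figure D1:**
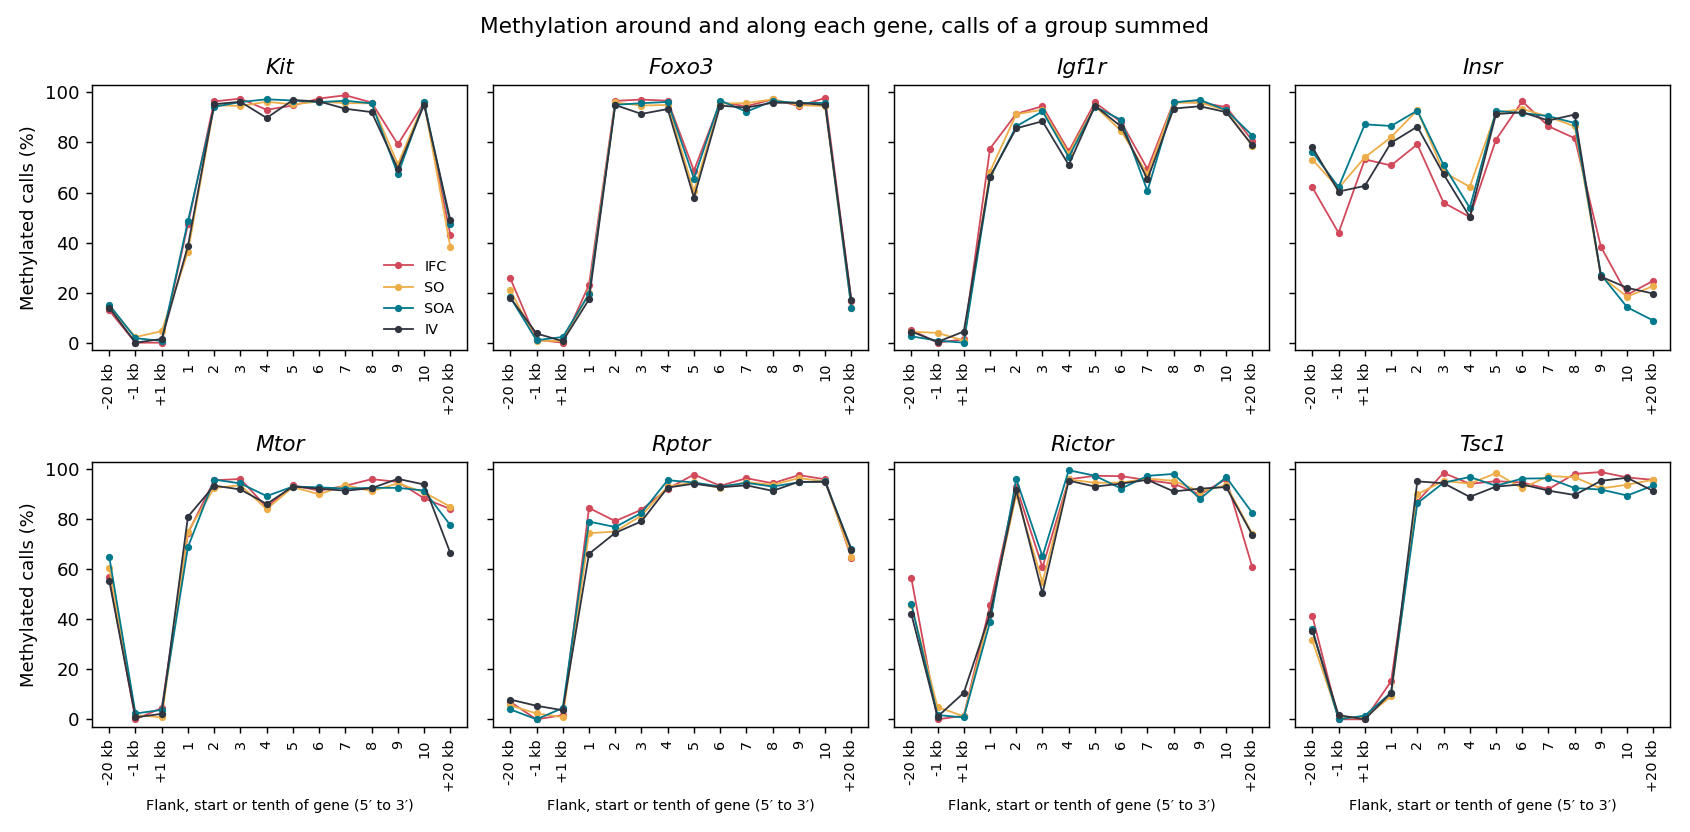
Percentage of methylated calls (y axis), summed over the libraries of each group (coloured lines), in the 20000 bp and 1000 bp before the start of each gene, its first 1000 bp, 10 equal parts from 5′ to 3′, and the 20000 bp after its end (x axis). In the first 1000 bp the lines of 7 genes drop to between 0 and 10.6% (Rictor in IV), and those of Insr do not and lie further apart, from 62.7% (IV) to 87.3% (SOA) in its first 1000 bp.

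Behind the start the level was high in 7 of the 8 genes and lower in Insr. With the first 2000 bp left out, the calls of all libraries were 92.6% methylated for Kit, 88.3% for Foxo3, 87.0% for Igf1r, 92.4% for Mtor, 91.4% for Rptor, 90.2% for Rictor and 92.8% for Tsc1, and 72.5% for Insr. Methylation ended near the gene at the 5′ side of Igf1r, where the 20000 bp upstream were 4.09% methylated, of Rptor (6.06%), Kit (14.3%) and Foxo3 (20.3%). Upstream of Tsc1 (35.1%), Rictor (46.5%) and Mtor (59.2%) the flank was partly methylated, and upstream of Insr it was 73.7% methylated. On the 3′ side the flank was 94.0% methylated behind Tsc1, 80.1% behind Igf1r, 15.1% behind Foxo3 and 19.2% behind Insr. These flanks hold parts of neighbouring genes, which were not examined.

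Inside the methylated bodies a few stretches were lower in all 4 groups. In part 5 of 10 equal parts of Foxo3, the pathway's transcription factor, 62.5% of calls were methylated (95% Wilson interval 59.8 to 65.2), with 95.1% in part 4 before it and 95.7% in part 6 behind it. In part 9 of Kit the value was 70.7% (67.8 to 73.4), with 94.8% in part 8 and 95.7% in part 10. Part 3 of Rictor, the scaffold that defines mTOR complex 2, was at 56.4% (52.3 to 60.5), and parts 4 and 7 of Igf1r were at 74.2% (72.6 to 75.6) and 65.7% (64.1 to 67.2). Tsc1, the shortest of the 8 genes, had no such stretch, and its parts 2 to 10 ran from 90.6% to 95.3%. Mtor ranged from 85.8% to 94.4% over its parts 2 to 10. Rptor was lower in part 2 (76.0%) and part 3 (81.4%) than in parts 4 to 10 (92.8 to 95.8%), and Insr was at 66.6% in part 3 and 54.5% in part 4. In Insr the last 2 parts were low in each group (26.4 to 38.3% of calls in part 9 and 14.1 to 21.9% in part 10), and they lie beyond the end of the RefSeq gene model, in a 3′ extension that the GENCODE model carries.

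Exons and introns did not follow a common order. Exons were more methylated than introns in Igf1r (93.0% of 3747 calls against 84.2% of 32726), Insr (84.8% against 69.8%), Rictor (91.2% against 79.3%) and Tsc1 (89.5% against 78.9%). The order was the opposite in Foxo3 (66.2% against 82.9%) and Rptor (77.1% against 90.8%), and both values were close in Kit (84.6% and 84.6%) and Mtor (90.7% and 89.4%). The 5′ exons lie in the unmethylated start of all but Insr, and no test was made of these values.

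The level of a gene body in a library was taken as the mean of the methylation percentages of its covered positions. Over the 16 libraries the order was Mtor (89.6%), Rptor (89.6%), Igf1r (85.6%), Kit (84.6%), Tsc1 (83.6%), Rictor (82.8%), Foxo3 (79.6%) and Insr (72.6%). The value of Insr includes the low 3′ extension of the GENCODE model. Over its shorter RefSeq gene body, given below, the SO and SOA means of Insr lay above those of Foxo3. Only the steps from Rptor to Igf1r and from Foxo3 to Insr were larger than the SD of either neighbour over the libraries, which was 2.10 and 2.21 points for the former pair and 3.47 and 3.55 points for the latter. All 8 lay in the upper part of the distribution. Mtor was above 96.0% and Insr above 69.7% of the 18197 gene bodies, of which 17.9% exceeded a level of 80, as 6 of these 8 genes did. The 8 genes are 49940 bp (Tsc1) to 296672 bp (Rptor) long, and the gene bodies were not matched for length. A high rank thus cannot be told apart from a trait of long genes.

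**Figure D2:**
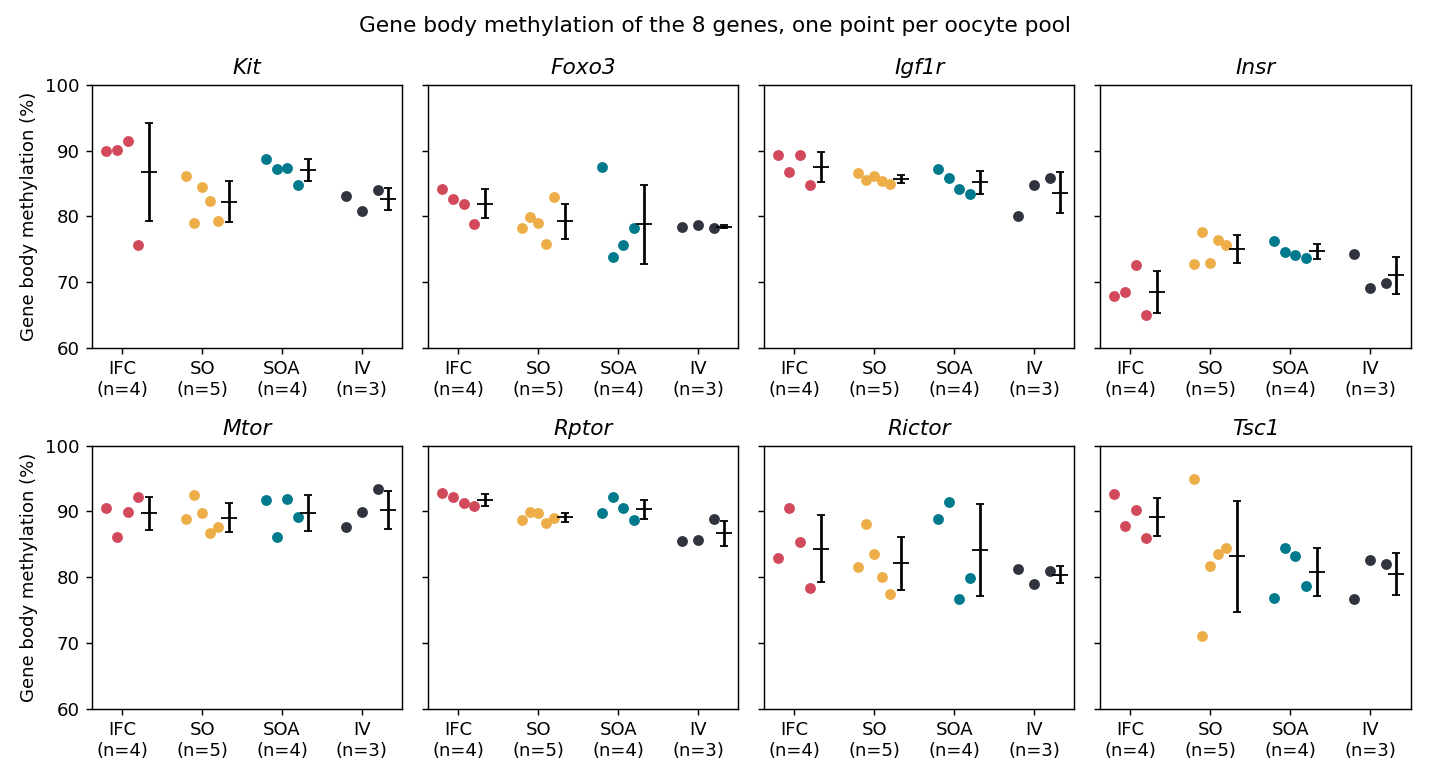
Gene body methylation (y axis, percent, drawn from 60 to 100) of each gene in each oocyte pool (points), by group (x axis, n in brackets), with the mean and SD of the group in black. Insr, drawn with its low 3′ extension, is the lowest gene in each group. Its 4 IFC points lie between 65.0% and 72.6%, and 1 IFC point of Kit at 75.6% stands below the other 3.

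Group differences were tested in 4 comparisons, follicle culture against superovulation at the same labelled age (IFC against SO), prepubertal against adult superovulation (SO against SOA), superovulation against natural ovulation in adults (SOA against IV), and IFC against SOA. The comparisons share samples. The test was a quasi-binomial model of the methylated and unmethylated calls, fitted to all 16 libraries with its dispersion moderated across gene bodies. P-values were adjusted by Benjamini-Hochberg over all 18197 gene bodies. The model weighs each library by its calls, whereas the differences given are between unweighted means of pool percentages. A p-value thus need not follow the size of the difference beside it. None of the 8 genes passed an adjusted p of 0.05 in any comparison, where 0.319%, 1.7%, 0% and 2.75% of all gene bodies passed, in the order named. For SOA against IV, where no gene body passed, 1543 of them had an unadjusted p under 0.05 and 0 passed with limma on the percentages. At an unadjusted p under 0.05 there were 2 of the 8 genes in IFC against SO (background 7.31%), 0 in SO against SOA (9.7%), 1 in SOA against IV (8.48%) and 4 in IFC against SOA (12.7%). The groups of no gene lay apart in SO against SOA (4.33% of all gene bodies). The median difference of the 8 genes was 2.44 points in IFC against SO, beside 0.619 over all gene bodies, -0.177 in SO against SOA (-0.116), 2.61 in SOA against IV (0.862) and 0.801 in IFC against SOA (0.482). Between 0.0604 and 8.42 points in size separated the group means over the 32 differences.

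Kit, the receptor for Kit ligand on the oocyte (gene body chr5:75574916-75656722, plus strand, 1442 CpGs), was at 89.9, 90.1, 91.4 and 75.6% in IFC, at 86.1, 79.0, 84.4, 82.4 and 79.3% in SO, at 88.7, 87.3, 87.4 and 84.8% in SOA and at 83.0, 80.8 and 84.0% in IV. The fourth IFC library was the lowest of all 16 and the other 3 IFC libraries were the highest. The difference of IFC and SO was 4.49 ± 3.98 points (SE; quasi-binomial test, adjusted p = 0.849), that of SO and SOA -4.80 ± 1.62 (adjusted p = 0.713), that of SOA and IV 4.45 ± 1.26 (adjusted p = 0.651) and that of IFC and SOA -0.309 ± 3.82 (adjusted p = 0.969). All 4 SOA values lay above all 3 IV values, as did the values of the first group for 3.9% of all gene bodies. Without the first 2000 bp the difference of IFC and SO was 0.248 points, that of SO and SOA -0.203, that of SOA and IV 2.26 and that of IFC and SOA 0.0449, and the groups overlapped in all 4 comparisons. With 1 library left out, the difference of IFC and SO ran from 2.93 points (without IFC pool 3) to 8.20 points (without IFC pool 4).

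Foxo3, the repressor of follicle activation (chr10:42181841-42276755, minus strand, 1623 CpGs), was at 84.2, 82.7, 81.9 and 78.9% in IFC, at 78.2, 79.98, 79.0, 75.8 and 83.0% in SO, at 87.4, 73.9, 75.6 and 78.2% in SOA and at 78.4, 78.7 and 78.2% in IV. The 3 IV pools agreed within 0.271 points (SD) and the 4 SOA pools spread over 6.04 points (SD), with the first SOA pool far above the others. The groups overlapped in all 4 comparisons, and the differences ran from 0.350 points (SOA against IV) to 3.11 points (IFC against SOA; adjusted p = 0.576). The latter ran from 1.46 points without SOA pool 2 to 5.99 points without SOA pool 1, and was 1.30 points without the first 2000 bp.

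The values of the insulin receptor Insr (chr8:3122061-3279617, minus strand, 1126 CpGs) were 67.8, 68.5, 72.6 and 65.0% in the IFC pools, 72.7, 77.6, 72.9, 76.4 and 75.6% in the SO pools, 76.3, 74.6, 74.1 and 73.7% in SOA and 74.3, 69.0 and 69.8% in IV. All 4 IFC values lay below all SO and all SOA values, by a narrow margin in both cases, and overlapped with IV. Groups that did not overlap with IFC lower made up 1.21% of all gene bodies in IFC against SO and 2.82% in IFC against SOA. The mean difference was -6.53 ± 1.84 points between IFC and SO (SE; unadjusted p = 0.00279, adjusted p = 0.240 in the quasi-binomial test; exact permutation test, 2-sided, p = 0.00794) and -6.18 ± 1.67 points between IFC and SOA (unadjusted p = 0.0207, adjusted p = 0.263; exact permutation p = 0.0286). These exact p-values are the smallest that 4 against 5 and 4 against 4 pools allow, and 80.3% and 71.03% of all gene bodies had a smaller difference in the same comparisons. With each of 10 equal parts of the gene counted equally, a setting chosen after seeing the data, the difference of IFC and SO did not pass (-5.01 points, limma, adjusted p = 0.148) and that of IFC and SOA did (-5.95 points, limma, adjusted p = 0.0269 over the 4472 gene bodies that could be tested in this way). In that setting IFC pool 3 (70.3%) lay above the lowest SO pool (67.9%) and the lowest SOA pool (69.6%), so the groups overlapped. Over the alternatives the adjusted p of IFC against SOA ran from 0.000384 (likelihood-ratio test) to 0.509 (without IFC pool 1). Over the shorter RefSeq gene body the group means were 72.5% ± 3.54 in IFC (SD, n = 4), 81.7% ± 1.89 in SO (n = 5), 81.4% ± 2.14 in SOA (n = 4) and 76.6% ± 2.86 in IV (n = 3). The pools ranged from 69.4 to 77.4% in IFC, from 79.6 to 84.8% in SO and from 78.9 to 84.1% in SOA, and these values were not set against other gene bodies.

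Igf1r (chr7:67952827-68233668, plus strand, 4006 CpGs), the receptor for the insulin-like growth factors, was at 89.4, 86.8, 89.3 and 84.7% in IFC, at 86.6, 85.6, 86.1, 85.4 and 85.0% in SO, at 87.2, 85.8, 84.2 and 83.4% in SOA and at 80.03, 84.8 and 85.9% in IV. The groups overlapped in each comparison. The largest difference was 2.38 ± 1.41 points for IFC against SOA (SE; unadjusted p = 0.0272, adjusted p = 0.298 in the quasi-binomial test; exact permutation test p = 0.143).

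Among the genes of the mTOR complexes, Mtor itself (chr4:148448611-148557683, plus strand, 1481 CpGs), the kinase of both complexes, was at 90.5, 86.1, 89.95 and 92.2% in IFC, at 88.8, 92.5, 89.8, 86.7 and 87.6% in SO, at 91.8, 86.1, 92.0 and 89.2% in SOA and at 87.6, 89.9 and 93.4% in IV. Its groups overlapped throughout and its differences were the smallest of the 8 genes in IFC against SO (0.645 points) and IFC against SOA (-0.0604 points). The opposite-strand gene Angptl7 covers 4.84% of its body.

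Rptor (chr11:119602905-119899576, plus strand, 3217 CpGs), which encodes the scaffold Raptor of mTOR complex 1, was at 92.8, 92.2, 91.3 and 90.8% in IFC, at 88.7, 89.9, 89.7, 88.2 and 89.0% in SO, at 89.8, 92.2, 90.6 and 88.7% in SOA and at 85.6, 85.6 and 88.9% in IV. All IFC values lay above all SO values, as in 2.01% of all gene bodies, with a difference of 2.67 ± 0.552 points (SE; unadjusted p = 0.00382, adjusted p = 0.284 in the quasi-binomial test; exact permutation test p = 0.00794). SOA exceeded IV by 3.63 ± 1.32 points (quasi-binomial test, unadjusted p = 0.00257, adjusted p = 0.533; exact permutation test p = 0.0857), with 1 IV library inside the range of SOA. Without the first 2000 bp the difference of IFC and SO was 1.72 points (adjusted p = 0.270), that of SOA and IV 1.48 points (0.497) and that of IFC and SOA 1.75 points (0.144) in the quasi-binomial test. The first group lay above the second in every pool in these 3 comparisons, as in 2.02%, 4.21% and 5.83% of the 16234 gene bodies tested without their first 2000 bp. The antisense gene Rptoros covers 4.57% of Rptor.

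Rictor (chr15:6708379-6800401, plus strand, 1069 CpGs) was at 82.9, 90.6, 85.4 and 78.4% in IFC, at 81.5, 88.1, 83.5, 80.05 and 77.4% in SO, at 88.8, 91.4, 76.7 and 79.8% in SOA and at 81.2, 78.9 and 81.0% in IV. In the 4 comparisons its group means differed by at most 3.81 points (SOA against IV; 1.41 without SOA pool 2 and 6.30 without SOA pool 3), with an SD of 7.03 points among the SOA pools, 5.09 among IFC, 4.01 among SO and 1.28 among IV. Tsc1 (chr2:28641228-28691167, plus strand, 541 CpGs), whose product holds mTOR complex 1 in check, was at 92.6, 87.8, 90.2 and 86.0% in IFC, at 94.9, 71.01, 81.7, 83.6 and 84.5% in SO, at 76.8, 84.4, 83.2 and 78.7% in SOA and at 76.7, 82.6 and 81.9% in IV. IFC lay above SOA in every pool, as in 4.96% of all gene bodies, with the largest difference of the 32, 8.42 ± 2.32 points (SE; unadjusted p = 0.0304, adjusted p = 0.317 in the quasi-binomial test; exact permutation p = 0.0286). Without the first 2000 bp that difference was 2.30 points (adjusted p = 0.471) and the groups overlapped.

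Some of these spreads moved with the share of covered positions that fell into the unmethylated start. The first 2000 bp held between 2.95% and 16.9% of the covered positions of Kit, depending on the library, and 15.9% in the fourth IFC library against 2.95 to 5.59% in the other 3. Without the first 2000 bp that library was at 89.9% and not at 75.6%, beside 94.0 to 95.0% in the other IFC libraries. For Tsc1 the share was 0% in the first SO library, which was the highest of its group at 94.9%, and 28.3% in the second, the lowest at 71.01%, which reached 99.0% without the start. The SD over the 16 libraries went from 4.48 to 1.93 points for Kit, from 6.13 to 2.70 for Tsc1, from 4.69 to 2.07 for Rictor and from 3.47 to 1.94 for Foxo3 when the first 2000 bp were left out. It changed less for Igf1r (2.21 and 2.08), whose start is unmethylated, and for Insr (3.55 and 3.61), whose start is methylated. Its difference between IFC and SO was -7.50 points without the first 2000 bp (quasi-binomial test, adjusted p = 0.0946), still short of the threshold. Without the first 2000 bp all IFC values of Insr lay below all SO values (1.42% of gene bodies in that setting) and all SOA values (3.09%).

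**Figure D3:**
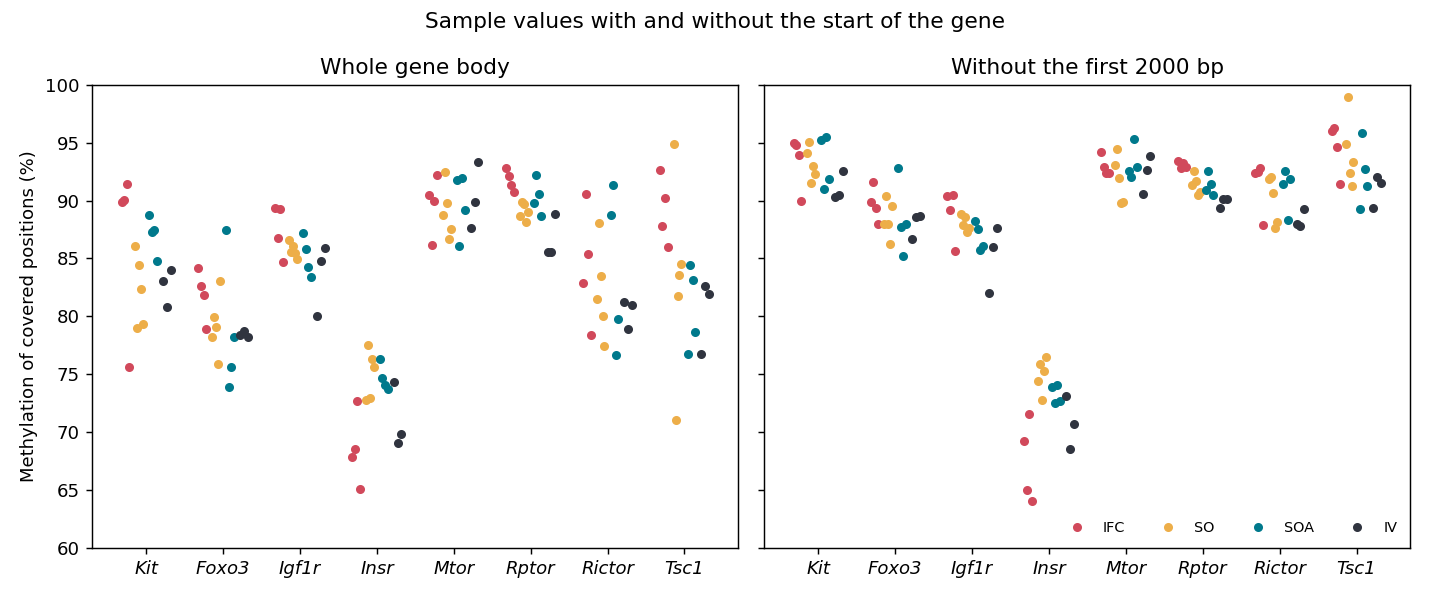
Methylation of the covered positions (y axis, percent, drawn from 60 to 100) of each gene (x axis) in each pool (points, coloured by group), over the whole gene body (left) and without its first 2000 bp (right). The points of Kit, Rictor and Tsc1 draw together on the right, and those of Insr and Igf1r change less.

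Windows of 100 consecutive reference CpGs (tiles) were tested between pairs of groups by a likelihood-ratio test of the calls and were called at an adjusted p under 0.05 and a difference of at least 20 points. Of about 150 tiles over the 8 genes, 0 of 149 were called in IFC against SO (1.12% of all tiles), 0 of 149 in SO against SOA (1.87%), 2 of 150 in SOA against IV (0.35%) and 1 of 148 in IFC against SOA (3.83%). Regardless of size, an adjusted p under 0.05 was found for 6 of 149 tiles in IFC against SO (4.46% of all tiles), 7 of 149 in SO against SOA (9%), 6 of 150 in SOA against IV (6.46%) and 9 of 148 in IFC against SOA (11.4%). The 3 called tiles lie in Igf1r, Mtor and Rptor. Of the 7 tiles in SO against SOA, only a Rictor tile (from chr15:6730731) also passed in the quasi-binomial model. It differed by -10.5 points (adjusted p = 0.00014 in the likelihood-ratio test, 0.0408 in the quasi-binomial model). Its likelihood-ratio adjusted p stayed under 0.05 in all 9 fits with 1 library left out. The same Rictor tile was higher in SOA than in IV by 13.6 points. The adjusted p there was 0.00546 in the likelihood-ratio test and 0.413 in the quasi-binomial model. The SO and IV means thus both lay below that of SOA. The largest of the 7 differences was 19.5 points, in an Igf1r tile from chr7:67961017 (0.0797 in the quasi-binomial model).

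The Igf1r tile (chr7:68129041-68134757), centred 179 kb behind the start of the gene between 2 low stretches at 172 and 185 kb, was at 83.2% ± 5.27 (SD, n = 4) in IFC, 72.8% ± 2.83 in SO (n = 5), 62.1% ± 7.13 in SOA (n = 4) and 72.1% ± 8.09 in IV (n = 3). The IFC pools were at 77.9, 79.5, 86.8 and 88.6% and the SOA pools at 66.7, 56.5, 69.6 and 55.6%, a separation that the choice of a called tile favours. The difference of 21.1 points had an adjusted p of 4.78e-06 in the likelihood-ratio test and of 0.00721 in the quasi-binomial model over all libraries. Its size fell below 20 points without IFC pool 3 or 4 or SOA pool 2 or 4, down to 18.9 points, with an adjusted p of at most 0.00209.

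The other 2 called tiles had a wide spread. The Mtor tile (chr4:148554894-148558793) at the 3′ end of the gene was at 57.3% ± 32.01 in SOA (SD, n = 4) and 26.5% ± 3.06 in IV (n = 3), with SOA pools at 83.3, 30, 86.7 and 29.2%. Its adjusted p was 0.00341, 0.0677 without SOA pool 3 and 0.478 in the quasi-binomial model. The Rptor tile (chr11:119603207-119608305) runs out of the unmethylated start and was at 61.9% ± 23.0 in SOA and 30.4% ± 22.4 in IV. Its adjusted p of 0.00462 became 0.149 without IV pool 1 and 0.129 without IV pool 2.

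**Figure D4:**
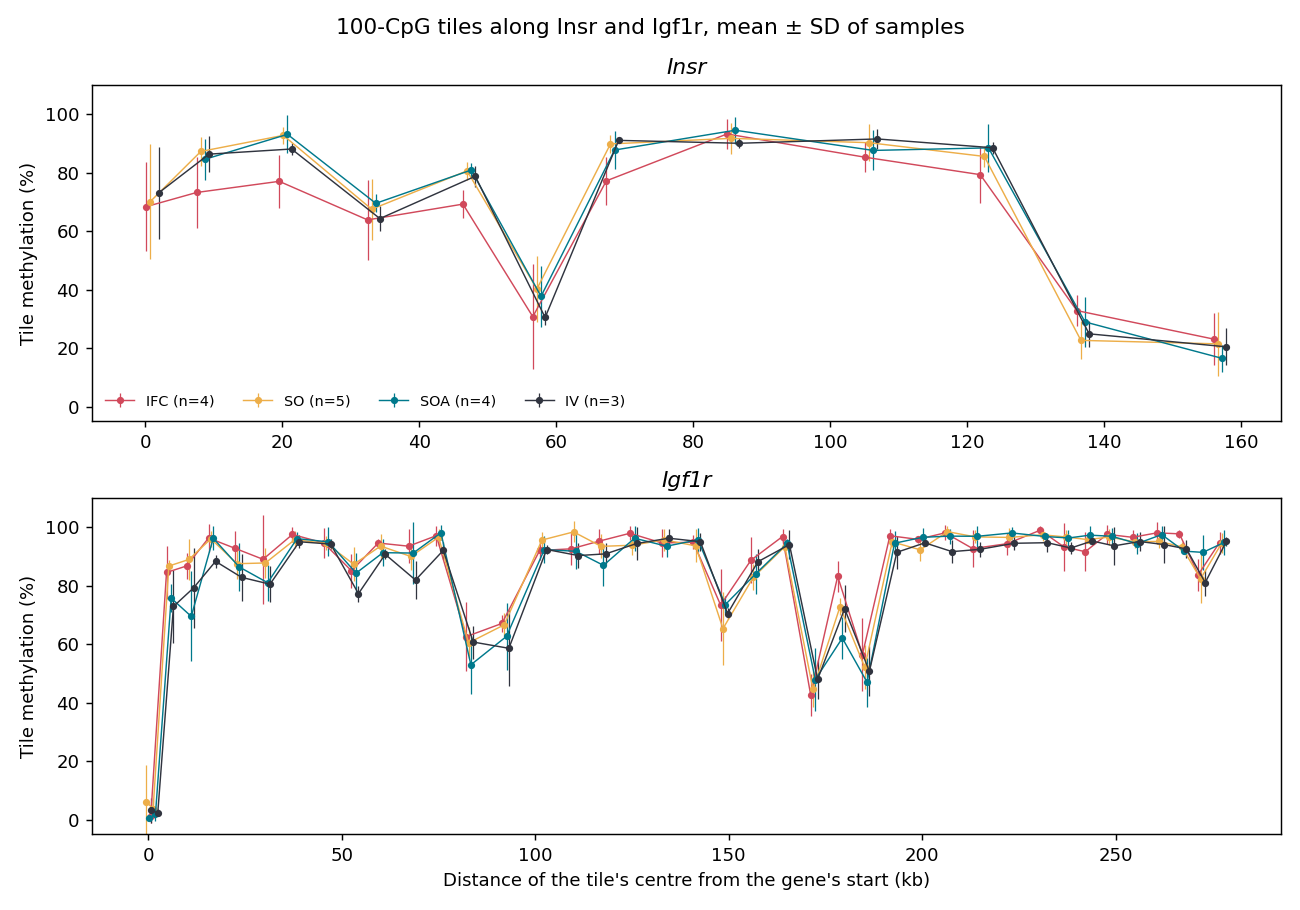
Methylation of tiles of 100 CpGs (y axis, percent, mean ± SD of the pools) against the distance of the tile's centre from the start of the gene (x axis, kb; groups slightly offset) for Insr and Igf1r, by group; the SOA mean of the first Insr tile is missing as 1 pool had no call. In Insr the IFC means lie below the other groups at 8.38, 20.4, 47.3 and 68.2 kb, and in Igf1r at 179 kb the IFC mean of 83.2% lies above the SOA mean of 62.1%.

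Along Insr 4 of 12 tiles had an adjusted p under 0.05 in the likelihood-ratio test of IFC against SO (4.46% of all tiles) and the same 4 of 11 tested in IFC against SOA (11.4%), centred 8.38, 20.4, 47.3 and 68.2 kb behind the start. There the mean of IFC was 73.2, 77.0, 69.2 and 77.2%, that of SO 87.2, 92.8, 80.6 and 89.8%, that of SOA 84.6, 93.1, 80.9 and 87.7% and that of IV 86.3, 88.1, 78.8 and 91.0%. The differences of IFC and SO were -14.0, -15.7, -11.4 and -12.6 points (adjusted p = 0.00520, 0.00375, 0.00126 and 0.0107), and those of IFC and SOA -11.3, -16.1, -11.6 and -10.5 points (adjusted p = 0.00668, 0.0227, 0.00460 and 0.0167). With 1 library left out, the tile at 47.3 kb kept an adjusted p under 0.05 in all 9 fits against SO and all 8 against SOA. The tile at 8.38 kb was at -8.01 points against SO (adjusted p = 0.0764) and -5.33 against SOA (0.0680) without IFC pool 2, and that at 68.2 kb at -8.72 (0.298) and -6.62 (0.279) without IFC pool 1. The tile at 20.4 kb had an adjusted p of 0.0520 against SO without IFC pool 4, and against SOA it kept an adjusted p under 0.05 in 3 of 8 fits. None of these differences passed in the quasi-binomial model, where the adjusted p lay between 0.0801 (at 47.3 kb, against SOA) and 0.278 (at 68.2 kb, against SO). At 57.5 kb a tile was low in each group (30.5 to 40.2%). The antisense gene Gm16180 overlaps 0.595% of Insr, inside the tile at 20.4 kb.

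The other genes of the pathway were counted from a list of 48, of which 46 could be tested. In gene body level they ranged from 1.26% (Rraga, which activates mTOR complex 1) to 89.0% (Mapkap1, a subunit of mTOR complex 2). Gene length and the share of covered positions in the first 2000 bp were not taken into account in these levels. Of the PI3K and AKT genes 6 of 13 exceeded 80%, among them Akt2 (88.6%) and Pik3ca (85.0%), and 1 was under 20% (Inpp4b, a phosphoinositide phosphatase, 19.6%). Of the TSC and mTOR complex genes 4 of 10 exceeded 80%, among them Tsc2 (86.2%), the partner of Tsc1. None of the 4 tested ligands did, with Kitl, the ligand of Kit, at 49.8%. Nor did any of the 7 adaptors, which ranged from 4.33% (Irs1) to 79.4% (Grb10).

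**Figure D5:**
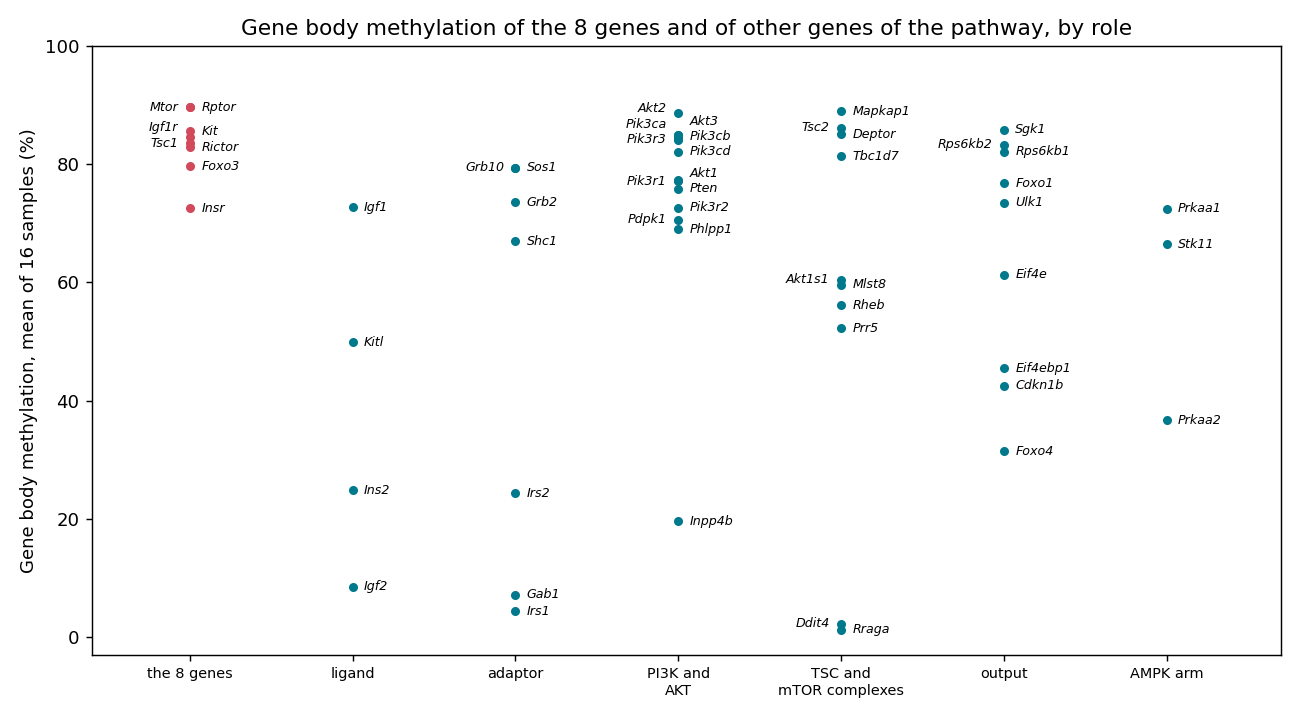
Gene body methylation as the mean of the 16 libraries (y axis, percent) of the 8 genes (red) and of 46 other genes of the pathway (blue), by role (x axis). The 8 genes lie between 72.6% and 89.6%, and the others between 1.26% and 89.0%.

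Of these 46 genes 0 passed in IFC against SO and in SOA against IV, and the same gene passed in the other 2 comparisons. Eif4ebp1, whose product blocks cap-dependent translation until mTOR complex 1 phosphorylates it, was higher in SO than in SOA (1 of 46 genes; 1.16% of all gene bodies were called higher) and higher in IFC than in SOA (1 of 46; 1.8%). Its values were 50.9, 65.8, 50.4 and 49.2% in the IFC pools, 50, 57.9, 49.8, 50.1 and 58.3% in the SO pools, 31.6, 35.7, 50 and 29.0% in SOA and 32.1, 29.6 and 37.0% in IV. The difference was 16.6 points for SO against SOA (quasi-binomial test, adjusted p = 0.00472) and 17.5 points for IFC against SOA (adjusted p = 0.0149), with 1 SOA pool overlapping both groups. Of 27 alternatives the call was lost in 5 for SO against SOA and in 6 for IFC against SOA, among them limma on the percentages (adjusted p = 0.0950 and 0.0553), the libraries under 10000000 calls (0.542 and 0.250) and the fit without SOA pool 4 (0.322 and 0.298). Both comparisons share the SOA pools. Of SO and SOA, the libraries under 10000000 calls held only SO pools 1 and 2 and SOA pools 1, 2 and 3. Fewer pools and lower depth cannot be told apart there. With p under 0.05 before adjustment there were 4 of the 46 genes in IFC against SO (7.31% of all gene bodies), 3 in SO against SOA (9.7%), 5 in SOA against IV (8.48%) and 4 in IFC against SOA (12.7%).

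The gene bodies whose levels ran most like those of Tsc1, which had the widest range of group means (8.74 points), were Mettl15 (Pearson r = 0.845), Arhgap21 (r = 0.840) and Poc1a (r = 0.840) over the 16 libraries. They were the highest of 18197, and all libraries enter with their differing depth. Tsc1 had the widest range only with its unmethylated start included. Without the first 2000 bp its group means ran from 91.0% (IV) to 94.6% (IFC), and those of Insr from 67.5% (IFC) to 75.0% (SO).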

How the data were processed

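Libraries of pooled MII oocytes were made by post-bisulphite adapter tagging. Per the labels, the authors trimmed reads with Trim Galore 0.4.4 (cutadapt 1.9.1) and aligned them to GRCm38 with Bismark 0.19.0. The deposited files give each covered cytosine position a methylation percent and its counts of methylated and unmethylated calls, one file per sample. From these, the level of a gene body or tile was computed as the mean percent of its covered positions (at least 5 per sample). Gene bodies (GENCODE) were tested by a quasi-binomial model of the calls over all 16 samples, with dispersion moderated by limma 3.58.1 in R 4.3.3, and tiles of 100 CpGs by a likelihood-ratio test of 2 groups, each with Benjamini-Hochberg adjustment over all features. Scripts were tested on simulated data. The design named no coverage minimum per position, and most positions had a single call. Values of single genes were also compared by an exact permutation test, and intervals are Wilson intervals at 95%. Per library 5218053 to 23065411 calls were available, which sets the precision. Genes were named as the 8 members, any listed pathway gene that passed, and the 3 gene bodies most like the member with the widest range of group means. The members and lists were chosen with earlier results of these data known. No label says that pools of a group came from separate collections, so gene body p-values of the main test measure only the spread between these samples. The likelihood-ratio test of tiles compares calls pooled per group, and its p-values take no account of the spread between samples. Alternatives covered the test, normalisation, depth, filters and each sample left out. Python 3.11.15 was used for extraction.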

Additional observations from a re-analysis of the deposited data

Results flagged for a closer look

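In the gene body of Kit, the fourth IFC library, at 75.6%, stood apart from the other 3 IFC libraries (89.9, 90.1 and 91.4%). Its gap to the nearest of them was 0.903 of the range of the group, above Dixon's 95% critical value for 4 samples. It was the only such value among 24 groups of values examined, and chance alone gives about 1 in 20. In that library 15.9% of the covered positions of Kit lay in the unmethylated first 2000 bp, against 2.95 to 5.59% in the other 3, and without the first 2000 bp it was at 89.9%.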

How the results depend on the processing

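None of the 32 differences passed in the main test. Of 888 values under alternatives 830 stayed on the same side with the same sign. The threshold was passed by 15 (14 of them in the likelihood-ratio test, which fits no dispersion), and 43 changed sign, over 16 differences. The other 16 kept their sign under every alternative run. The cause of these changes was not tested. Settings that change only the test leave a difference as it was, as do fits without a library of a group not compared. Those values could not change sign, so the 830 do not measure how stable a sign is. With the likelihood-ratio test 3842, 4693, 4901 and 5574 gene bodies were called in IFC against SO, SO against SOA, SOA against IV and IFC against SOA, and 4, 2, 3 and 5 of the 8 genes. In IFC against SO, 58 of 18197 gene bodies were called in the main test. With 2 groups only 93 were called, with the replicate block 93, with libraries under 10000000 calls 10 of 18199 tested and without the first 2000 bp 101 of 16234. Equal weight to 10 parts, which also changed the test to limma and the gene bodies tested, called 147 of 4472. Libraries under 10000000 calls gave 51 in SO against SOA and 300 in IFC against SOA. Beside the IFC pools, only SO pools 1 and 2 and SOA pools 1, 2 and 3 were that small. Fewer pools and lower depth thus cannot be told apart in this setting. No IV library was that small, so SOA against IV was not run. Equal weight with limma over those 4472 gene bodies called 1 of the 8 genes (Insr) in IFC against SOA, and its 3 changes cannot be told apart. Deviations of same-numbered samples correlated between -0.0843 and 0.0675 (21 pairs, median 0.00606). Those of other-numbered samples correlated between -0.0988 and 0.139 (74 pairs, median -0.00364), so no pairing by replicate number was seen. The block called none of the 8 genes, but neither did the main test, so that count says nothing about pairing. Signs changed for Kit in IFC against SOA when thinned (0.213 points), without the first 2000 bp (0.0449) and with equal weight (1.07). With libraries under 10000000 calls they changed for Mtor (-0.933) and Rictor (-0.501) in IFC against SO, Mtor in SO against SOA (0.676) and Rictor in IFC against SOA (-1.31). Without the first 2000 bp they changed for Rptor in SO against SOA (0.0323) and Mtor in SOA against IV (0.812). When centred on all gene bodies they changed for Mtor in SO against SOA (0.0172) and IFC against SOA (0.0575), and in SOA against IV for Foxo3 (-2.23), Igf1r (-0.992) and Tsc1 (-2.26). With equal weight they changed in SO against SOA for Foxo3 (-0.624) and Insr (-0.943), and in IFC against SOA for Mtor (0.383) and Rictor (-0.576).

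With each sample left out in turn, SO against SOA ran from -1.21 to 3.32 for Foxo3, -0.0209 to 1.26 for Igf1r, -0.278 to 0.929 for Insr, -1.92 to 0.0304 for Mtor, -4.56 to 0.338 for Rictor and -0.559 to 5.41 for Tsc1. SOA against IV ran from -2.54 to 1.99 for Foxo3, -0.189 to 2.75 for Igf1r, -1.86 to 1.02 for Mtor and -1.54 to 1.65 for Tsc1. IFC against SOA ran from -1.87 to 3.40 for Kit, -1.27 to 1.13 for Mtor and -2.35 to 2.54 for Rictor, and IFC against SO from -0.190 to 1.83 for Mtor. Gene bodies called ran from 24 to 97 in IFC against SO, 81 to 418 in SO against SOA and 216 to 660 in IFC against SOA. The count moved by over 1.5 times in IFC against SO without IFC replicate 1 (31), IFC replicate 3 (24), SO replicate 3 (34) or IV replicate 1 (97), in SO against SOA without SOA replicate 4 (81), and in IFC against SOA without IFC replicate 1 (306), IFC replicate 3 (328) or SOA replicate 4 (216). Tiles called in SOA against IV ran from 628 to 1438, with 1438, 1230 and 1248 without SOA replicate 4, IV replicate 2 and IV replicate 3. Tiles of the 8 genes ran from 0 to 1 in IFC against SO, 0 to 2 in SO against SOA, 1 to 2 in SOA against IV and 0 to 2 in IFC against SOA.

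Of all tiles 568, 1932, 0 and 4198 were called in the quasi-binomial model, 389, 772, 102 and 2312 at 30 points, and 875, 1050, 109 and 2402 with at least 20 positions. Of the tiles of the 8 genes, 0 were called in SOA against IV in the quasi-binomial model and with at least 20 positions, and 0 in IFC against SOA at 30 points. The Rptor tile was not among those tested in the quasi-binomial model, and neither the Rptor nor the Mtor tile reached 20 positions in every library, so these losses come from the filter, except that of the Mtor tile in the quasi-binomial model (adjusted p = 0.478). Tiles shifted by 50 CpGs gave 1 in IFC against SO, 1 in SOA against IV and 2 in IFC against SOA.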
